A study of Mus musculus with 4 samples.

Results

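The canonical PRC1 subunit genes described here are 9 genes grouped by their products: the chromobox genes Cbx2, Cbx6, Cbx7 and Cbx8, the polyhomeotic genes Phc1, Phc2 and Phc3, and the Polycomb group ring finger genes Bmi1 and Pcgf2. They are 9 of the 21938 protein-coding genes on the nuclear chromosomes of the mouse annotation. The rule that lists them used no accessibility value. The data were ATAC-seq peak lists, in which open chromatin is found from the places where Tn5 transposase cuts and tags DNA. There were 4 libraries, 2 of cKO and 2 of Ctrl mice, each from hippocampus taken on the day of birth (postnatal day 0, P0). The cKO genotype was Kdm2bEmx1-delta-CxxC, in which Cre expressed from Emx1, a gene of the dorsal telencephalon, removes the part of Kdm2b that encodes the CxxC zinc finger. The Ctrl genotype was Kdm2bfl/+ or Kdm2bfl/fl, and the labels did not say which library was which, nor the sex, litter or number of animals behind a library. Peak names in the 2 Ctrl lists carry different tags that the labels do not explain, so whether the Ctrl libraries differed in genotype was not resolved. Cells of the hippocampus that do not descend from the Emx1 lineage, such as microglia and vessel cells, keep the zinc finger in this model. The source field of the labels named neural progenitor cells, whereas titles and protocol named hippocampus, and hippocampus is used here.

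Polycomb repressive complex 1 (PRC1) holds developmental genes silent. Every form of it has a RING1 ubiquitin ligase joined to a PCGF protein. In canonical PRC1 that pair carries a CBX protein, whose chromodomain reads the methylated histone H3 left by PRC2, and a PHC protein, whose SAM domain links complexes to one another. In variant PRC1 the CBX and PHC proteins are absent and RYBP or YAF2 takes their place, and KDM2B, the protein altered in these mice, brings the variant form with PCGF1 to unmethylated CpG islands through its zinc finger. The question put to the data was how open the promoters and surroundings of the canonical subunit genes were in cKO and Ctrl hippocampus.

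The lists held 46389 and 7037 peaks in Ctrl replicates 1 and 2, and 21404 and 44535 in cKO replicates 1 and 2. Mean depth, as recovered from the lists, was 1.62, 3.46, 2.07 and 1.81 fragments per base in that order, so the shortest list came from the deepest library. Where 4 values follow one another below, they are in this library order. At its summit, the point of highest fragment pile-up, the median peak reached 11.1, 5.77, 8.68 and 11.1 times the mean depth of its library. Ctrl replicate 2 thus stood apart from Ctrl replicate 1 by more than either cKO library did, and the comparisons of the groups by percentile and by count are given with and without it. Promoter peaks at markers of the dorsal telencephalon were present for 5, 0, 2 and 6 of 6 genes, Lhx2 among them, and at radial glia markers for 3, 0, 2 and 3 of 3. The counts were 2, 0, 0 and 1 of 3 for interneuron markers and 1, 0, 0 and 0 of 3 for the oligodendrocyte lineage. Markers of microglia, blood vessels and unrelated tissues had none in any list (0 of 10 genes). The Kdm2b promoter is outside the deleted part of that gene and gives no check of the genotype.

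All 9 genes carried a CpG island within 2 kb of a start site, with between 1005 and 2392 bp of island sequence. By the same rule 15851 of the 21938 protein-coding genes carried one. The letters right at the start sites differed far more. The 3 RefSeq promoters shown (GRCm38.p6, the mm10 build, 250 bases before to 50 after the start) were chosen because openness did not follow CpG content among them. The Cbx8 promoter (chr11:119040864-119041163, minus strand) was the most open of the members in 2 of the 3 lists that reached it and held 24 CpG dinucleotides. The Phc1 promoter (chr6:122340178-122340477, minus strand) held 9 and had a peak in the same 3 lists. The Phc1 summits in Ctrl replicate 1 and cKO replicate 1 lay beyond this window, 118 and 131 bp after the RefSeq start. The 151 bases centred on the cKO replicate 1 summit held 8 CpGs. The Cbx7 promoter (chr15:79932597-79932896, minus strand) held 33, the most of the members' principal promoters, and had a peak in 1 list. Sequences are written 5′ to 3′ on the strand of the gene, and capitals mark CpG dinucleotides.
Cbx8: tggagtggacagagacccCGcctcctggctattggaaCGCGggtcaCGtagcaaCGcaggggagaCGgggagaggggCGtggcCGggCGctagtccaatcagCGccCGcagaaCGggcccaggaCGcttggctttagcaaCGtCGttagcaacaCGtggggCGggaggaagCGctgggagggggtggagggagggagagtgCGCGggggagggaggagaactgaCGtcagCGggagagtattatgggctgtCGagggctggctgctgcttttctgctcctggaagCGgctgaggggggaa
Phc1: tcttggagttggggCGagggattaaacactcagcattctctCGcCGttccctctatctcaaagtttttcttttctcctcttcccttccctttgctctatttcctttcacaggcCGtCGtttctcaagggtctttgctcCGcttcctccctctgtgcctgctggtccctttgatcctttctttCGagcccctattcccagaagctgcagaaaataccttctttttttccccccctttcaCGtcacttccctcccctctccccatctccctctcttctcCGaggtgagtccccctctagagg
Cbx7: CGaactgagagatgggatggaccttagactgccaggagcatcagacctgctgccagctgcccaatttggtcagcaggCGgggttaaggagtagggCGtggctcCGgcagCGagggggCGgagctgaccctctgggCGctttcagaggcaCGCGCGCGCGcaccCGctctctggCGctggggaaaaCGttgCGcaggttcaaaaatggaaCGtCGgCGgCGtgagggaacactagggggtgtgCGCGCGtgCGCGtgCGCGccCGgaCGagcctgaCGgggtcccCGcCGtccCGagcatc

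Across 21263 RefSeq promoters of protein-coding genes the median was 13 CpGs. Counting the most CpG-rich promoter of each gene, the median was 22 with a peak in Ctrl replicate 1 and 3 without. Of the other members, Cbx6 held 31, Bmi1 23, Phc3 15 and Pcgf2 10. Phc2 had 3 RefSeq promoters, with 19, 2 and 45 CpGs from the first to the last. Phc1 and Pcgf2 lay below the median of all promoters.

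**Figure D1:**
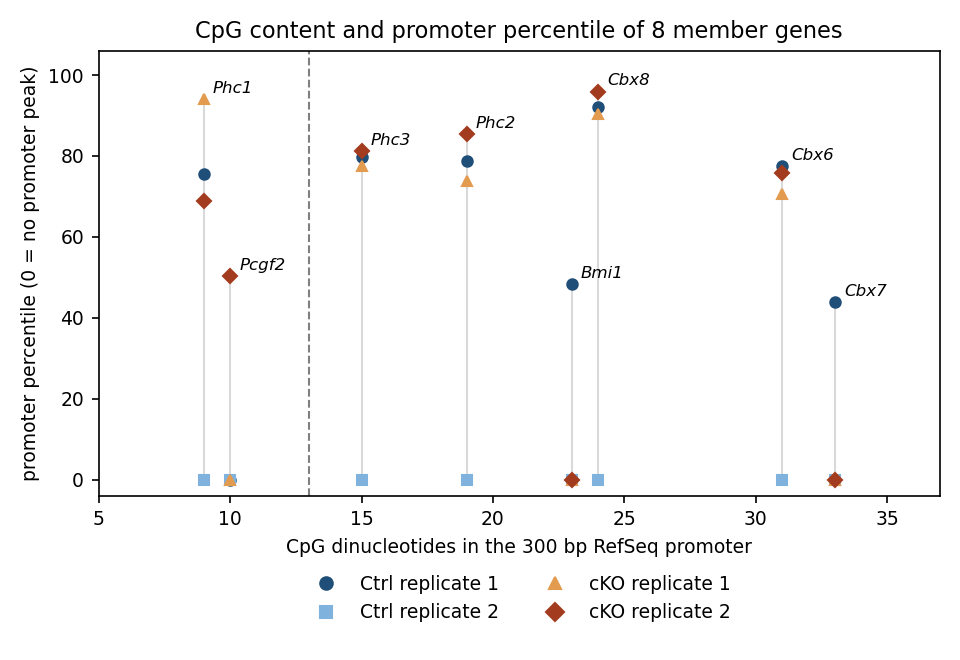
CpG dinucleotides in the 300 bp RefSeq promoter (x axis) against promoter percentile (y axis, 0 for no peak) for 8 members, with 1 point per library and the promoter nearest the main peak for Phc2. The dashed line is the median of 13 over all promoters. Phc1, with 9 CpGs, reached the 94.0th percentile in cKO replicate 1, where its summit lay outside these 300 bp. Cbx7, with 33, had no peak outside Ctrl replicate 1.

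The sequence under the summit is shown for Cbx2 and for Bmi1, whose peak lay after the RefSeq promoter window, as the 151 bases centred on the summit in Ctrl replicate 1. Both are on the plus strand, at chr11:119022799-119022949 and chr2:18677107-18677257, and capitals again mark CpGs. The Bmi1 summit lay 164 bp after the start site and its 151 bases were 80.8% G and C, with 25 CpGs. The Cbx2 summit lay 88 bp before the start site, in 68.2% G and C with 16 CpGs.
Cbx2: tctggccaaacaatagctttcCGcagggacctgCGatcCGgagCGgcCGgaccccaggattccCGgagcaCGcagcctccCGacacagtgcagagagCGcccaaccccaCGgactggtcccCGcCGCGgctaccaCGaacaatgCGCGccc
Bmi1: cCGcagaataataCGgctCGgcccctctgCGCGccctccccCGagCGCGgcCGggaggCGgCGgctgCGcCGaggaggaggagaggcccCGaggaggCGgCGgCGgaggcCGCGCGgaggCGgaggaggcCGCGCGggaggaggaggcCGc

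A search of the 10 RefSeq promoters of the members on both strands found the E-box CACGTG in 6 of them, 1 each in Cbx6, Cbx8, Phc2, Phc3, Bmi1 and Pcgf2. It was present in 7.84% of all promoters of that length, and in 11.3% of the 10826 with at least the median number of CpGs. The E-box lies within 98 bp before the RefSeq start in Cbx6, Cbx8, Phc2 and Phc3, 137 bp before it in Pcgf2 and 215 bp before it in Bmi1. A peak covered all 6 bases in 3 lists for Cbx6, Cbx8 and Phc2, in 2 for Phc3 and in 0 for Pcgf2 and Bmi1. The edge of 1 further peak fell within the E-box at Phc3, as did that of the Pcgf2 peak. The sites are printed with 10 bases on either side and the E-box in capitals, at chr15:79834344-79834369, chr11:119040996-119041021, chr4:128654635-128654660, chr3:30969482-30969507, chr2:18676793-18676818 and chr11:97699770-97699795. Phc2 and Bmi1 are read on the plus strand and the others on the minus strand.
Cbx6: cccggagcatCACGTGacggcccgca
Cbx8: tcgttagcaaCACGTGgggcgggagg
Phc2: ctggagtgggCACGTGacactctccg
Phc3: tcgctggcctCACGTGacctctgcgc
Bmi1: atgaggggagCACGTGacccggcggg
Pcgf2: ggaatgaggtCACGTGggtgagtagt

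The GC box GGGCGG was in 8 of the 10 promoters (46.2% of all, 75.6% of those with at least the median number of CpGs) and the CCAAT box in 4 (38.2% of all). The NRF1 core CGCATGCG and the YY1 core AAGATGGCG were each in 1, both in Phc3 (2.52% and 1.83% of all). The ETS core CCGGAAG was in 1, the last promoter of Phc2 (11.6% of all), and the cyclic AMP element TGACGTCA in 1, Cbx8 (2.23% of all). The TATA box TATAAA was in 0 (12.6% of all), as was the CTCF core (1.51% of all). A match of letters is a description of the sequence and not evidence that a factor was bound there.

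A promoter peak was present for 8 and 0 of the 9 genes in the Ctrl libraries, and for 5 and 7 in the cKO libraries. Among all 21938 protein-coding genes the shares were 58.0%, 8.27%, 40.3% and 55.9%, and among the 15851 with an island at a promoter 78.0%, 11.2%, 54.9% and 75.3%. Each member had a peak in at least 1 list and none had one in all 4. Cbx6, Cbx8, Phc1, Phc2 and Phc3 had a peak in every list except that of Ctrl replicate 2. The mean count in cKO minus that in Ctrl was 2, and −2 without Ctrl replicate 2. No peak in a list means only that nothing there passed that list's threshold. The lowest summit listed was 4.32, 3.46, 4.34 and 4.43 times mean depth in the order above. Peaks were called against local background, so a promoter with no listed peak could be deeper than these values. The Pcgf2 summit in cKO replicate 2 was 17.2 times mean depth, with a fold enrichment over local background of 3.14.

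The promoter percentile used below is a gene's standing in a list, namely the percentage of all protein-coding genes that had either no promoter peak there or a best one with a lower −log10 p. It is 0 for a gene with no promoter peak, and a gene with a peak could not fall below 42.0, 91.7, 59.7 and 44.1 in the 4 lists. Fragments at a summit were divided by the mean depth of the library to give a scaled depth, shown with exact Poisson 95% intervals that cover counting error only. The hippocampus holds many cell types, and an opening in fewer cells cannot be told apart from a weaker opening in each.

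**Figure D2:**
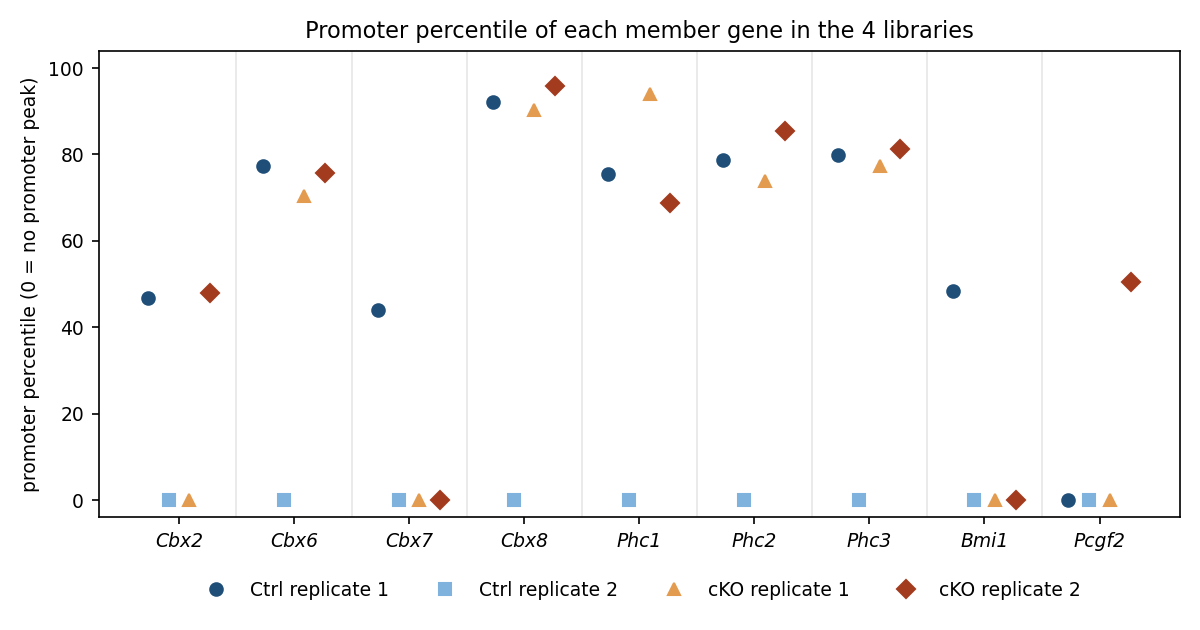
Promoter percentile (y axis, 0 for no promoter peak) of the 9 genes (x axis), with 1 point per library and 2 libraries per group. Cbx8 lies at 90.2 or above in 3 libraries, and the points of Ctrl replicate 2 are all at 0.

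Among the chromobox genes, Cbx8, which encodes a chromodomain subunit found with both PCGF2 and BMI1, was the most open. Its promoter peak at chr11:119040631-119041567 in Ctrl replicate 1 ranked 1640 of 46389. It ranked 2732 of 21404 in cKO replicate 1 and 859 of 44535 in cKO replicate 2. The summits lay 88 to 139 bp before the start site. Scaled depth was 62.9 (51.3 to 76.3) in Ctrl replicate 1, 19.3 (13.8 to 26.3) in cKO replicate 1 and 63.7 (52.6 to 76.4) in cKO replicate 2, from 102, 40 and 115 fragments. Ctrl replicate 1 and cKO replicate 2 were alike and cKO replicate 1 was lower. Its ratio to Ctrl replicate 1 was 0.307 at Cbx8, beside a median of 0.369 over 8598 promoters. The Cbx8 percentiles were 92.1, 0, 90.2 and 95.9, with the cKO libraries on either side of Ctrl replicate 1.

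Cbx6, a chromobox gene expressed in the brain, had a peak at chr15:79834026-79834730 in Ctrl replicate 1. A start site of Npcd, position 79834237, is at the same base as one of Cbx6 and inside the peak of Ctrl replicate 1 and of cKO replicate 2, so the opening cannot be assigned to either gene. Its percentile was 77.4, 0, 70.5 and 75.7 and its scaled depth 30.2 (22.3 to 39.9), 9.16 (5.51 to 14.3) and 24.4 (17.7 to 32.7) in the 3 lists with a peak. Both cKO values were below that of Ctrl replicate 1 and above the absent peak of Ctrl replicate 2, so the groups overlapped.

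Cbx2, whose product compacts nucleosomes through a basic stretch, had a weak promoter peak in Ctrl replicate 1 and cKO replicate 2 and none in the others. The summits held 14 and 16 fragments, or 8.63 (4.72 to 14.5) and 8.86 (5.06 to 14.4) times mean depth, and the percentiles were 46.8 and 47.9. The values of these 2 libraries, from different groups, differed by less than their counting error.

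Cbx7, a chromobox gene best known from stem cells, was the weakest member. Its only promoter peak, chr15:79932550-79932885 in Ctrl replicate 1, held 12 fragments at the summit, 7.40 (3.82 to 12.9) times mean depth, and ranked 40245 of 46389. Its percentile was 43.9 in that library and 0 in the other 3. The lower bound is under the lowest summit that list accepted, and the peak was among those lost when a −log10 q of at least 5 was required.

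The polyhomeotic genes encode the subunits that polymerize through their SAM domains, and all 3 had a promoter peak in the same 3 libraries. Phc1 had the widest range of percentile and the narrowest of depth among these 3 genes. Its percentiles were 75.5, 0, 94.0 and 68.9. Scaled depth was 27.7 (20.2 to 37.1), 19.8 (14.2 to 26.8) and 18.8 (13.0 to 26.3), from 45, 41 and 34 fragments. By rank it was therefore the first of the members in cKO replicate 1, whereas by depth its 2 cKO libraries were alike and their intervals overlapped that of Ctrl replicate 1. The strongest summit, between positions 122340096 and 122340203 of chromosome 6, lay between annotated starts of the gene and within 131 bp of the RefSeq start. Repeat-masked bases made up 32.9% to 38.0% of that peak. A second, weaker promoter peak of 18 and 17 fragments, around position 122339367 in Ctrl replicate 1 and 122339518 in cKO replicate 2, was listed in those libraries only.

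Phc2 has 3 start sites in the annotation, and its main peak lay at the first, chr4:128654376-128655381 in Ctrl replicate 1. Its percentile was 78.6, 0, 73.9 and 85.4 and its scaled depth 29.0 (21.3 to 38.5), 9.64 (5.89 to 14.9) and 31.6 (23.9 to 40.9) in the 3 lists with a peak. The lowest depth and the highest were both cKO. A peak at the last start site, with its summit 41 bp before position 128727585, was listed in cKO replicate 2 only, with 16 fragments, although the promoter there held 45 CpGs. No peak was listed at the middle start, whose promoter held 2 CpGs.

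Phc3 had 1 promoter peak, chr3:30968570-30969658 in Ctrl replicate 1, with the summit 5 bp from a start site. Its percentile was 79.8, 0, 77.4 and 81.2, a narrower range over the 3 lists with a peak than that of Cbx6, Cbx8, Phc1 or Phc2. Scaled depth was 32.7 (24.5 to 42.7) in Ctrl replicate 1, 9.64 (5.89 to 14.9) in cKO replicate 1 and 26.6 (19.6 to 35.2) in cKO replicate 2. By depth both cKO values were lower than that of Ctrl replicate 1, and by rank they stood on either side of it.

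The ring finger genes that pair with RING1 in canonical PRC1 each had a promoter peak in 1 list, as did Cbx7. Bmi1, known for keeping stem cells dividing, had one in Ctrl replicate 1 only, chr2:18677104-18677334, with 23 fragments or 14.2 (8.99 to 21.3) times mean depth and a percentile of 48.3. Pcgf2, the close relative of Bmi1, had one in cKO replicate 2 only, chr11:97699782-97700232, with 31 fragments or 17.2 (11.7 to 24.4) times mean depth and a percentile of 50.4. Each was listed in 1 library of 1 group and absent from the other library of that group. When any overlap with the promoter window counted, the peak at Psmb3 reached the window of Pcgf2, whose percentiles became 82.1, 0, 0 and 82.5 and whose difference between cKO and Ctrl went from 25.2 to 0.22. At both loci the open promoter next door was far stronger. Commd3 before Bmi1 reached 38.8, 11.6 and 23.8 times mean depth in Ctrl replicate 1, cKO replicate 1 and cKO replicate 2. Psmb3 before Pcgf2 reached 43.8, 15.9 and 39.9.

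**Figure D3:**
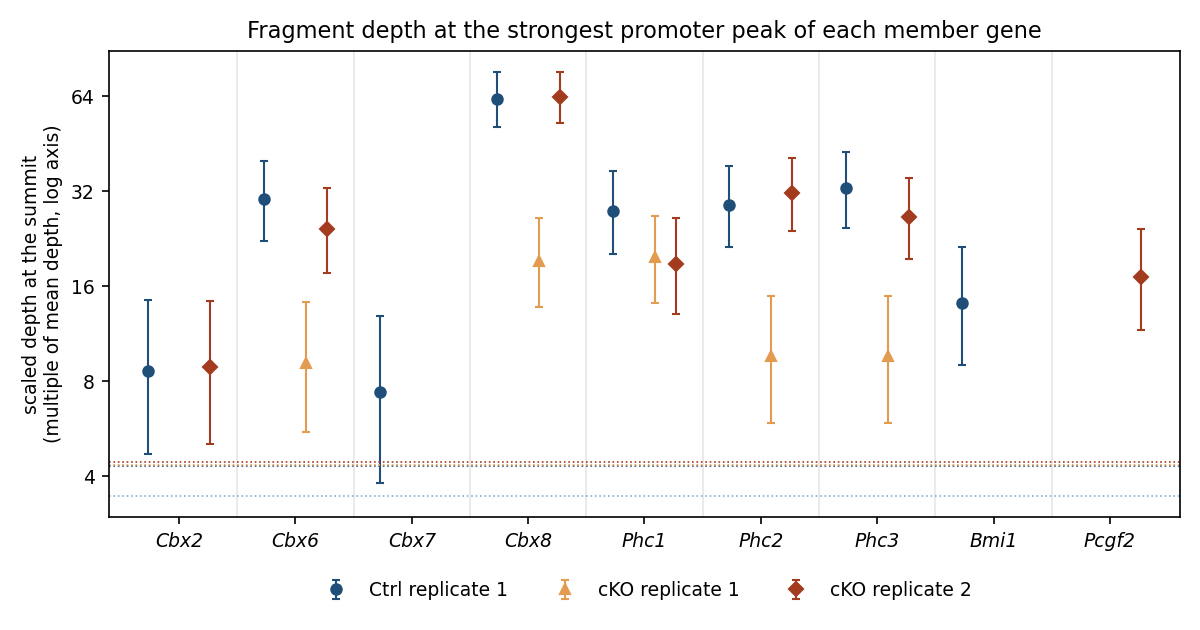
Scaled depth at the strongest promoter summit of each gene (x axis) as a multiple of mean library depth (y axis, log scale), with exact Poisson 95% intervals and 1 point per library that listed a peak. Dotted lines mark the lowest summit in each list, which is not a depth below which all unlisted promoters lie. Cbx8 stands at 62.9 and 63.7 in Ctrl replicate 1 and cKO replicate 2, and the cKO replicate 1 points are lower except for Phc1.

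Ordered by percentile, Ctrl replicate 1 ran from Cbx8 through Phc3, Phc2, Cbx6, Phc1, Bmi1 and Cbx2 to Cbx7. Only the step from Cbx8 to Phc3 exceeded the counting intervals of depth, and the 4 genes from Phc3 to Phc1 lay between 27.7 and 32.7. cKO replicate 2 ran from Cbx8 through Phc2, Phc3, Cbx6, Phc1 and Pcgf2 to Cbx2, again with a gap beyond the intervals after Cbx8. In cKO replicate 1 the order was Phc1, Cbx8, Phc3, Phc2 and Cbx6, and all neighbours had overlapping intervals.

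In no member did both cKO percentiles exceed both Ctrl percentiles, and in none did both fall below (0 of 9 each way). Promoter peaks were listed at least once for 13196 protein-coding genes, and of these 20.5% ranked higher and 2.80% lower in that sense. Without Ctrl replicate 2 the members ranked higher numbered 0 and those ranked lower 3, Cbx6, Cbx7 and Bmi1, beside 23.8% and 36.6% of the same genes. The mean percentile in cKO minus Ctrl was highest for Cbx8, 93.1 ± 4.01 against 46.1 ± 65.2 (SD, n = 2 each), a difference of 47.0 (exact two-sided permutation test over 6 assignments, p = 0.667). For Phc1 it was 43.7 (p = 0.667 by the same exact test), for Phc2 40.4 and for Phc3 39.4 (exact p = 0.667 each). It was 34.4 for Cbx6, 25.2 for Pcgf2, 0.57 for Cbx2, −22.0 for Cbx7 and −24.2 for Bmi1 (exact p = 1 each). The SD of Ctrl exceeded every one of these differences except that of Pcgf2, which had no Ctrl peak. The smallest p that 2 against 2 libraries allow is 0.333, and after Benjamini-Hochberg adjustment over the 13196 genes each exact p was 1. Without Ctrl replicate 2 the difference was 0.95 for Cbx8, 5.97 for Phc1, 1.03 for Phc2, −0.49 for Phc3, −4.31 for Cbx6 and −22.8 for Cbx2, so it shrank or turned in these 6. It stayed at 25.2 for Pcgf2 and was −43.9 for Cbx7 and −48.3 for Bmi1, whose single peaks were in Ctrl replicate 1. Without Ctrl replicate 1 the difference for Cbx7 and for Bmi1 was 0, and without cKO replicate 2 that for Pcgf2 was 0.

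Depth could be compared gene by gene where promoter peaks of 2 libraries overlapped. Over 8598 such promoters, scaled depth in cKO replicate 1 was a median of 0.369 times that in Ctrl replicate 1 (quartiles 0.317 and 0.437). Cbx6 stood at 0.303, Cbx8 at 0.307, Phc2 at 0.333 and Phc3 at 0.295, each with a 95% interval that took in the median of all promoters. Phc1 stood at 0.712 (exact conditional interval 0.455 to 1.11), and 98.4% of promoters had a lower ratio. In cKO replicate 2 the median over 11473 promoters was 0.842 (quartiles 0.730 and 0.964), and there Phc1 was at 0.678 (0.421 to 1.08), with 15.5% of promoters lower. The raised ratio of Phc1 was thus found in 1 cKO library and not in the other. The other members in cKO replicate 2 lay between 0.806 for Cbx6 and 1.09 for Phc2, all with intervals that took in the median.

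**Figure D4:**
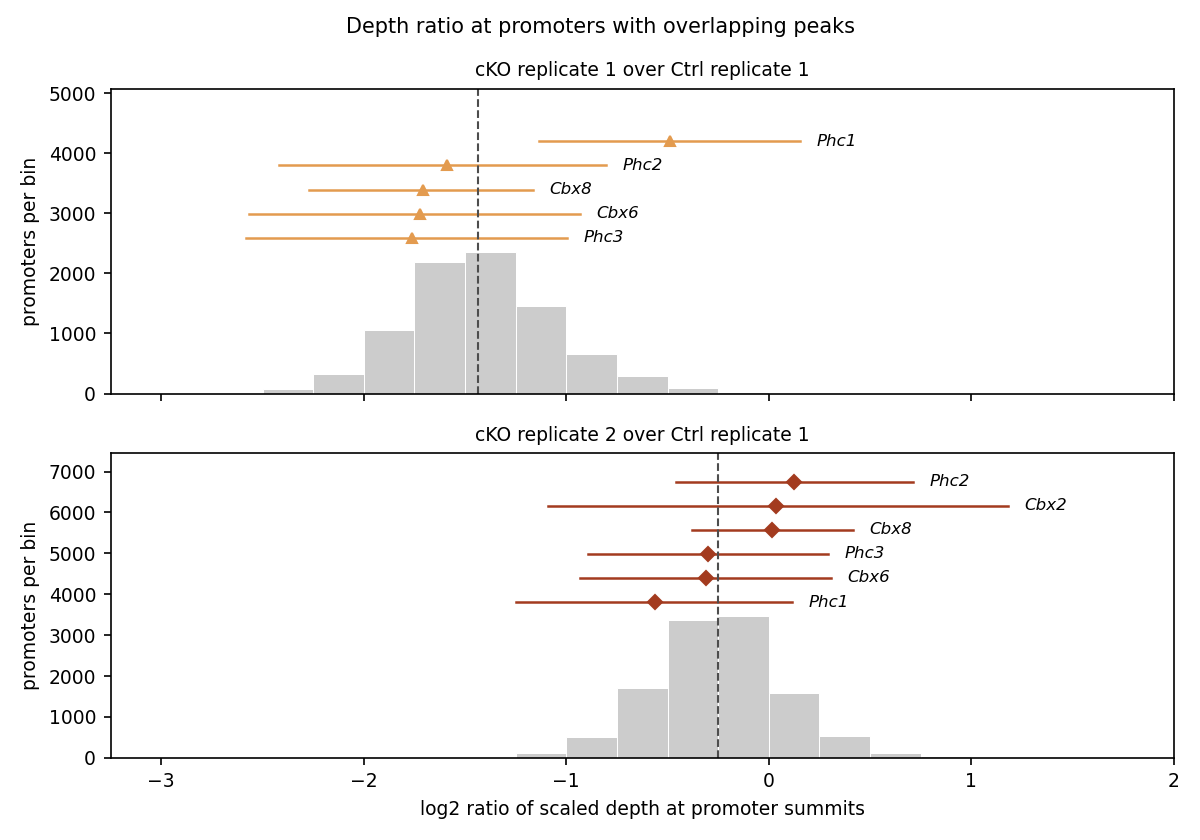
Histograms of the log2 ratio of scaled depth, cKO replicate 1 (top) and cKO replicate 2 (bottom) over Ctrl replicate 1, at promoters with overlapping peaks (y axis, promoters per bin; dashed line, median). Points are members with exact 95% intervals, set above the bars without reference to the y axis. Phc1 is right of the median in cKO replicate 1, at a ratio of 0.712, and left of it in cKO replicate 2, at 0.678.

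Peaks were also collected over each gene and 20 kb on either side, which gave 31 distinct regions, 4 of them shared by the neighbours Cbx2 and Cbx8 on chromosome 11. Of these, 11 lay at a member promoter, 5 at the promoter of another gene and 15 outside every promoter. The lists held a peak in 25, 2, 12 and 25 of them, and in 11, 1, 3 and 11 of those outside promoters. By pattern, 11 regions were listed in all but Ctrl replicate 2, 8 in Ctrl replicate 1 and cKO replicate 2, 5 in Ctrl replicate 1 only and 5 in cKO replicate 2 only. A single region was in Ctrl replicate 2 only, and 1 was in all 4. These counts and patterns were not set beside shares over the whole series. The lists differed in length, from 7037 peaks in Ctrl replicate 2 to 46389 in Ctrl replicate 1. No region was listed in both cKO and neither Ctrl library, and none in both Ctrl and neither cKO library (0 of 31 each). Of 58652 regions merged over the whole of the 4 lists, 0.692% and 0.305% had these patterns, so about 0 of 31 is also what the background gives. Without Ctrl replicate 2, 0 of 30 regions were in both cKO libraries alone and 5 in Ctrl replicate 1 alone, beside 1.62% and 19.6% of 56988 regions over the whole of the other 3 lists. The mean count in cKO minus that in Ctrl was 5, and −6.5 without Ctrl replicate 2.

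The region listed in every library was the promoter of M6pr, downstream of Phc1, which reached 105, 8.08, 36.6 and 78.0 times mean depth. The region listed in Ctrl replicate 2 alone, chr3:30883901-30884330 beyond the end of Phc3, was made up entirely of repeat-masked bases (100%) and held 17 fragments. The named region outside promoters for each gene was the one with the strongest mean rank. For Cbx8 it was chr11:119053223-119053863, 12507 bp before the start site, with 24.0, 10.6 and 22.1 times mean depth in the 3 lists other than Ctrl replicate 2. For Phc2 it was the intronic chr4:128711331-128711816, with 15.4, 7.23 and 14.9 in the same lists. In both, cKO replicate 1 was lowest and the other 2 libraries were alike.

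For Bmi1 the region was chr2:18693919-18694529, downstream of the gene, with 13.6 in Ctrl replicate 1 and 15.5 in cKO replicate 2. It lay 13839 bp from a Bmi1 start site and 4812 bp from one of Spag6. The depth was close to that of the Bmi1 promoter in Ctrl replicate 1, but there the region ranked 18392 and the promoter peak 30897. For Pcgf2 the region was the intronic chr11:97694907-97695320, with 12.3 in Ctrl replicate 1 and 8.86 in cKO replicate 2. For Cbx2 it was chr11:119034103-119034421, between Cbx2 and Cbx8, with 8.63 and 8.86, and for Phc3 the intronic chr3:30959988-30960620, with 6.78 and 6.64. Each of these 4 regions was thus listed in 1 library of each group. Cbx7 was the exception, with 3 regions, all in Ctrl replicate 1 only. Its strongest region outside the promoter, the intronic chr15:79927767-79928013, reached 11.1 times mean depth, above its promoter. Cbx6 and Phc1 had no region outside promoters. The letters of the CTCF core matched once in the regions named for Phc2 and Cbx2, and in none of the other 5 named regions (0 matches).

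**Figure D5:**
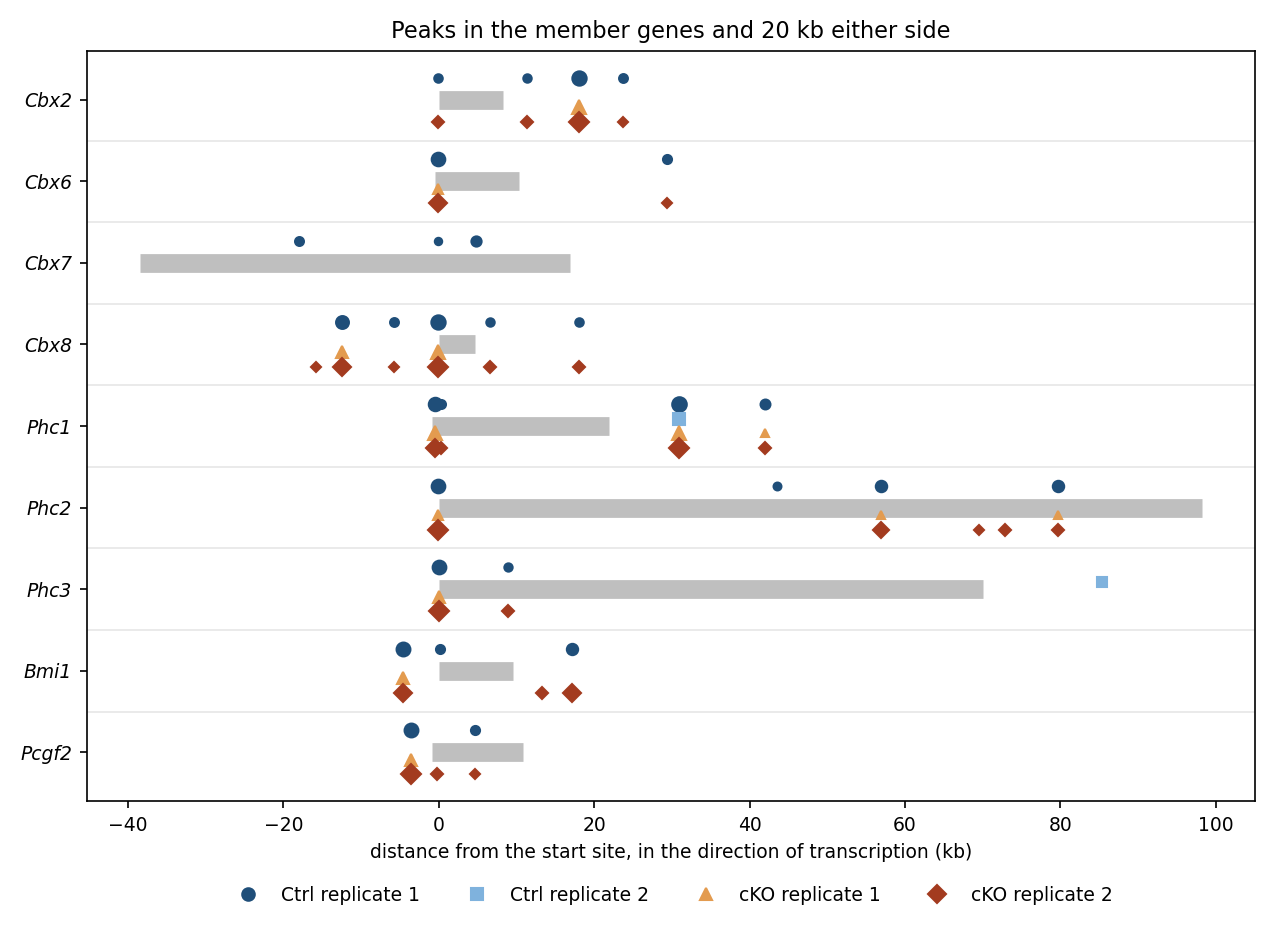
Peaks over each gene (grey bar, y axis) and 20 kb either side, placed by distance in kb from the start site nearest its strongest promoter peak (x axis), with 1 lane and 1 symbol per library. Larger symbols are peaks of higher rank within their list. Ctrl replicate 2 has 1 symbol at Phc1 and 1 at Phc3, and Cbx7 has symbols of Ctrl replicate 1 alone.

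Other PRC1 genes gave a setting for these values. All 13 of the genes listed (the ligases Ring1 and Rnf2, Scmh1, Scml2 and the variant subunits) had a promoter peak in Ctrl replicate 1 and in cKO replicate 2, 9 had one in cKO replicate 1 and 2 in Ctrl replicate 2. In library order, 58.0%, 8.27%, 40.3% and 55.9% of all protein-coding genes had one. Of those with an island at a promoter, 78.0%, 11.2%, 54.9% and 75.3% did. The median percentile of the 13 was 68.5, 0, 66.6 and 69.1, beside 75.5, 0, 70.5 and 68.9 for the 9 canonical subunit genes. Of the 13, 3 ranked higher in both cKO libraries, Kdm2b, Bcor and Yaf2, and 1 ranked lower, Pcgf1, beside 20.5% and 2.80% over all genes. Without Ctrl replicate 2 the same 4 genes did so, beside 23.8% and 36.6%. Among the 9 canonical genes the counts were 0 and 0 with all 4 libraries, and 0 and 3 without Ctrl replicate 2. Kdm2b was at 68.5, 0, 74.9 and 70.7, although its scaled depth was lower in both cKO libraries, at 9.16 and 18.3, than in Ctrl replicate 1, at 20.3. Bcor, a partner of PCGF1, was at 49.9, 0, 66.6 and 53.2 and Yaf2 at 59.5, 0, 62.8 and 68.2, with cKO depths on either side of that in Ctrl replicate 1. Pcgf1, the ring finger of the KDM2B complex, was at 98.1, 96.5, 94.1 and 95.1, whereas its scaled depth was 79.5, 6.93, 21.2 and 53.1, so by depth the groups overlapped. The exact permutation p was 0.333 for each of these 4, the smallest possible, and 1 after adjustment.

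Pcgf1 and Pcgf3 were the 2 genes of the 13 with a peak in Ctrl replicate 2, beside 0 of the 9 canonical genes and 8.27% of all protein-coding genes. The difference between 2 of 13 and 0 of 9 was not tested. The heterochromatin chromobox genes Cbx3 and Cbx5, whose proteins read a different methylated lysine, were listed in all 4 libraries, at 94.3 or higher. Cbx1 had a peak in 3 and percentiles of 73.2, 0, 74.2 and 79.0 (exact permutation p = 0.333), with cKO depths of 8.68 and 22.1 on either side of 21.6 in Ctrl replicate 1. With all 4 libraries, Cbx1 alone ranked higher in both cKO libraries (1 of 3, beside 20.5% of all genes tested). Without Ctrl replicate 2, Cbx1 and Cbx3 did so (2 of 3, beside 23.8% of all genes tested).

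The genes whose percentiles over the 4 libraries were nearest those of Cbx8 were Cript and Pigf, which had identical values (Euclidean distance 0.252), and Tasp1 (0.893). Within a distance of 1 there were 3 such genes. Nearest to Cbx7 were Pcp4l1 (0.00912), Epha8 and Mal2 (0.0137 each), among 235 genes within that distance, since a gene with a weak peak in Ctrl replicate 1 alone has the same 3 zeros. Distances over 4 libraries describe the lists only.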

How the data were processed

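ATAC-seq was carried out on P0 hippocampus from 2 cKO and 2 Ctrl samples, grouped by their titles. According to the methods of the study, Cutadapt and Bowtie2 were used for trimming and for alignment to mm10. The authors then removed blacklisted, mitochondrial and duplicate reads, shifted alignments for Tn5 and called peaks in each library separately with MACS2 2.2.7.1. The deposited lists hold a score (not used), the fold enrichment at the summit (a ratio of fragment pile-up to local background), the −log10 p-value and the −log10 q-value. Separate calling gives each list its own threshold, and removal of duplicates can lower the deepest summits.

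Peaks were ranked by −log10 p within a list. Whole fragments at each summit were recovered from fold and p, with at least 99.986% of peaks fitting within 0.01 of the deposited −log10 p. They were divided by the lowest background of the list, taken as mean depth. A promoter peak had its summit within 2 kb of a start site in GENCODE M21 (basic set, 55413 genes, 77221 start sites). No peak ran past a chromosome end of GRCm38. CpG islands were stretches of at least 200 bp with at least 50% GC and an observed over expected CpG of at least 0.6. Groups were compared by an exact two-sided permutation test. No member had a peak in all 4 lists, so scaled depth was not tested. P-values measure only the spread between these samples, which may be technical. Python 3.11.15, numpy 2.4.6, pandas 2.3.3, scipy 1.17.1, pysam 0.24.0 and matplotlib 3.10.9 were used.

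One PRC1 gene and 1 marker gene are not reported here. The members, the other gene lists, the markers and the tests were chosen with earlier results of these data known. All 9 members are named. Other PRC1 and heterochromatin chromobox genes are named where they ranked apart between the groups, and Pcgf3, Cbx3 and Cbx5 were added after their values were seen. For the members of highest and lowest mean percentile, the 3 nearest genes are named. Promoter sequences came from RefSeq, which gave 10 for 8 members, with Cbx2 unmatched. Member loci were the gene and 20 kb either side. The CTCF core was added after seeing the data. Alternatives were a window of 1 kb, any overlap, equal-size lists of 7037 peaks, a −log10 q of at least 5, rank by fold, mid-rank for genes without a peak, coding start sites, other flanks, a replicate block, leaving out each library and, chosen after seeing the data, removal of peaks with at least 50% repeat-masked bases, and the counts of the other gene lists, of all genes and of regions by pattern without Ctrl replicate 2.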

Additional observations from a re-analysis of the deposited data

How the results depend on the processing

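A window of 1 kb, any overlap, coding start sites and removal of repeat-masked peaks left the direction of all 9 member differences in percentile as it was, and rank by fold did so as well, but any overlap cut that of Pcgf2 from 25.2 to 0.22. Rank by fold put 2 members, Cbx8 and Phc3, higher in both cKO libraries (21% of all genes tested), and mid-ranks for absent peaks put 2, Cbx7 and Bmi1, lower (10.4% of all). The difference for Cbx2 turned to −23.4 with a −log10 q of at least 5 and to −7.43 with mid-ranks, and that for Cbx6 to −38.7 with equal-size lists. Equal-size lists also took Cbx2, Cbx7, Bmi1, Pcgf2 and the difference in members with a peak to 0, Phc1 to 9.27, Phc2 to 3.40, Phc3 to 0.69 and the difference in locus regions to −0.5, and left Cbx8 at 47.0. The difference in locus regions, 5 with flanks of 20 kb, was 2.5 over gene bodies alone, 8.5 with flanks of 50 kb and 1.5 with a −log10 q of at least 5. Mid-ranks cut Cbx8 to 24.1, Phc1 to 20.8, Phc2 to 17.4, Phc3 to 16.5, Cbx6 to 11.5 and Pcgf2 to 6.69. Leaving out 1 library at a time moved the difference in members with a promoter peak between −2 and 6 and that in locus regions between −6.5 and 16.5. It moved the number ranked higher in cKO between 0 and 5 and the number ranked lower between 0 and 3. The number ranked higher reached 5 when either Ctrl replicate 1 or cKO replicate 1 was dropped (55.8% and 44.8% of all genes tested), and the number ranked lower reached 3 without Ctrl replicate 2 (36.6%). The percentile difference ranged from −23.4 to 24.5 for Cbx2, from −4.31 to 73.1 for Cbx6 and from −0.49 to 79.3 for Phc3. The lowest came without cKO replicate 2 for Cbx2 and without Ctrl replicate 2 for Cbx6 and Phc3. For Cbx8 the range was 0.95 to 93.1, for Phc1 5.97 to 81.4 and for Phc2 1.03 to 79.7, with the highest without Ctrl replicate 1. For Pcgf2 it was 0 to 50.4, for Cbx7 −43.9 to 0 and for Bmi1 −48.3 to 0. Scaled depth in cKO minus Ctrl replicate 1 ranged from −43.6 to 0.777 for Cbx8 and from −19.3 to 2.58 for Phc2, and turned positive without cKO replicate 1. The cause of these shifts was not tested, beyond the fewer libraries or peaks that remained. Replicate numbers were shared by the groups and are taken as numbers only. Deviations from the group means correlated at 0.053 between same-numbered libraries over 13196 genes. With 2 libraries per group the deviations mirror each other, so this is a single value. It cannot show whether same-numbered libraries were handled together. With the replicate block the differences were unchanged, 47.0 for Cbx8 among them, and the smallest p that 2 pairs allow is 0.5 (exact sign-flip test). Weak summits of 12 to 16 fragments, as at Cbx7 and Cbx2, limit what these lists can show.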
